A study of Arabidopsis thaliana with 24 samples.

Results

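Seeds of the Arabidopsis thaliana mutant lec1-1 were compared with wild type seeds of the same ecotype, Wassilewskija (Ws), by RNA sequencing at 15, 17 and 21 days after flowering (DAF). The comparison rests on 6 of the 24 deposited columns, 3 lec1-1 and 3 Ws, matched by day, and 23 of the 24 columns are distinct libraries. Each genotype and day is 1 library of pooled RNA, made from seeds dissected out of the siliques of 24 plants grown at 22 °C. The 3 days serve as the repeats of a genotype. The test removes changes over the days that all genotypes share. Its p-values measure the spread between days that is left within genotypes, pooled over all 23 libraries, not a spread between repeats of 1 day. Seeds were collected in triplicate and their RNA was then pooled, amplified by in vitro transcription and sequenced on a SOLiD machine. The labels give both genotypes the same growth conditions and name no treatment. The series set mutants whose seeds do not survive drying, lec1-1, abi3-5 and fus3-3, against seeds that do, and the labels call lec1-1 intolerant and Ws tolerant. The model in which the spread was estimated also held lec2-1 (in Ws), Ler with abi3-5 and abi3-1, and Col-0 with fus3-3.

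LEC1 (LEAFY COTYLEDON1, AT1G21970) encodes an embryo-specific B subunit of NF-Y, a trimeric factor that binds the sequence CCAAT. With the B3-domain factors ABI3, FUS3 and LEC2 it drives seed maturation, the phase in which the embryo stops dividing, fills with storage protein and oil, makes late embryogenesis abundant (LEA) proteins, loses its chlorophyll and dries. Embryos without LEC1 are known for cotyledons that carry leaf traits such as trichomes and for death on drying.

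The libraries held 2647215 to 3991063 counts. LEC1 itself had 0 counts in all 3 Ws and all 3 lec1-1 libraries, and 0 to 2 counts in each of the other libraries of the series, so the targeted gene does not check the labels of this pair. Levels are in CPM, counts relative to a library size scaled by TMM, a method that takes most genes as unchanged. CPM values of a library need not add up to the usual total where a few genes hold most of the counts. The 13 storage protein genes took 62.5, 54.7 and 15% of the counts of Ws at 15, 17 and 21 DAF and 13.7, 14.3 and 7.45% of those of lec1-1. TMM factors were 0.527 to 1.07 in Ws and 1.48 to 1.7 in lec1-1. Markers of other seed and fruit tissues were also read. Of 11 endosperm markers 2 could be tested and EPR1 fell (not called lower with library totals), with summed levels of 555 to 1444 CPM in Ws and 166 to 223 CPM in lec1-1, and FIS2, MINI3 and ALE1 at 0. Of 11 seed coat markers 5 were tested and 0 were called at an adjusted p under 0.05 by edgeR (1 at an unadjusted p under 0.05, 1 by DESeq2), with sums of 177 to 206 CPM in Ws and 183 to 225 CPM in lec1-1. Of 8 silique wall markers 4 were tested and ALC rose, with sums of 2.21 to 13.0 CPM in Ws and 6.64 to 12.2 CPM in lec1-1 and IND at 0. The call of ALC was lost without the library of Ws 15 or 21 DAF (adjusted p up to 0.101, log2 fold change then 3.51). In bulk seeds, fewer cells of a type and less RNA per cell cannot be told apart.

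Setting lec1-1 beside Ws addressed which genes change in maturing seeds without LEC1. Many genes of storage protein, oil bodies and chlorophyll breakdown fell in lec1-1, while most tested genes of the photosystems, of chlorophyll synthesis, of the cell cycle and of the primary cell wall rose. By edgeR's quasi-likelihood test with Benjamini-Hochberg adjustment, 3808 of 16085 genes were called (23.7%), 2337 higher (14.5%) and 1471 lower (9.15%). At an unadjusted p under 0.05 there were 5937 (36.9%). Of those called, 3771 (99%) moved the same way on all 3 days. All lec1-1 libraries lay above all Ws libraries at 3727 of the 16085 genes (23.2%) and below them at 2809 (17.5%). Where genes are said below not to overlap, these shares are the background. With library totals in place of TMM, 6561 were called, 6383 of them higher, and the median log2 fold change of all genes moved from 0.03 to 1.21. Changes below are given after TMM scaling, and counts with library totals stand beside groups with members that fell. The 6 libraries were also read day by day. At least 4-fold higher in lec1-1, with a pseudocount of 1 CPM, were 1342 genes at 15 DAF (8.34%), 1851 at 17 DAF (11.5%) and 1418 at 21 DAF (8.82%), and at least as far lower were 656 (4.08%), 916 (5.69%) and 485 (3.02%). On all 3 days 587 genes were 4-fold higher (3.65%) and 164 were 4-fold lower (1.02%), whereas 19 (0.118%) were past 4-fold in opposite directions on different days. Without the lec1-1 library of 17 DAF the total called was 1889, and without that of Ws at 17 or 21 DAF it was 2192 or 2432.

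**Figure D1:**
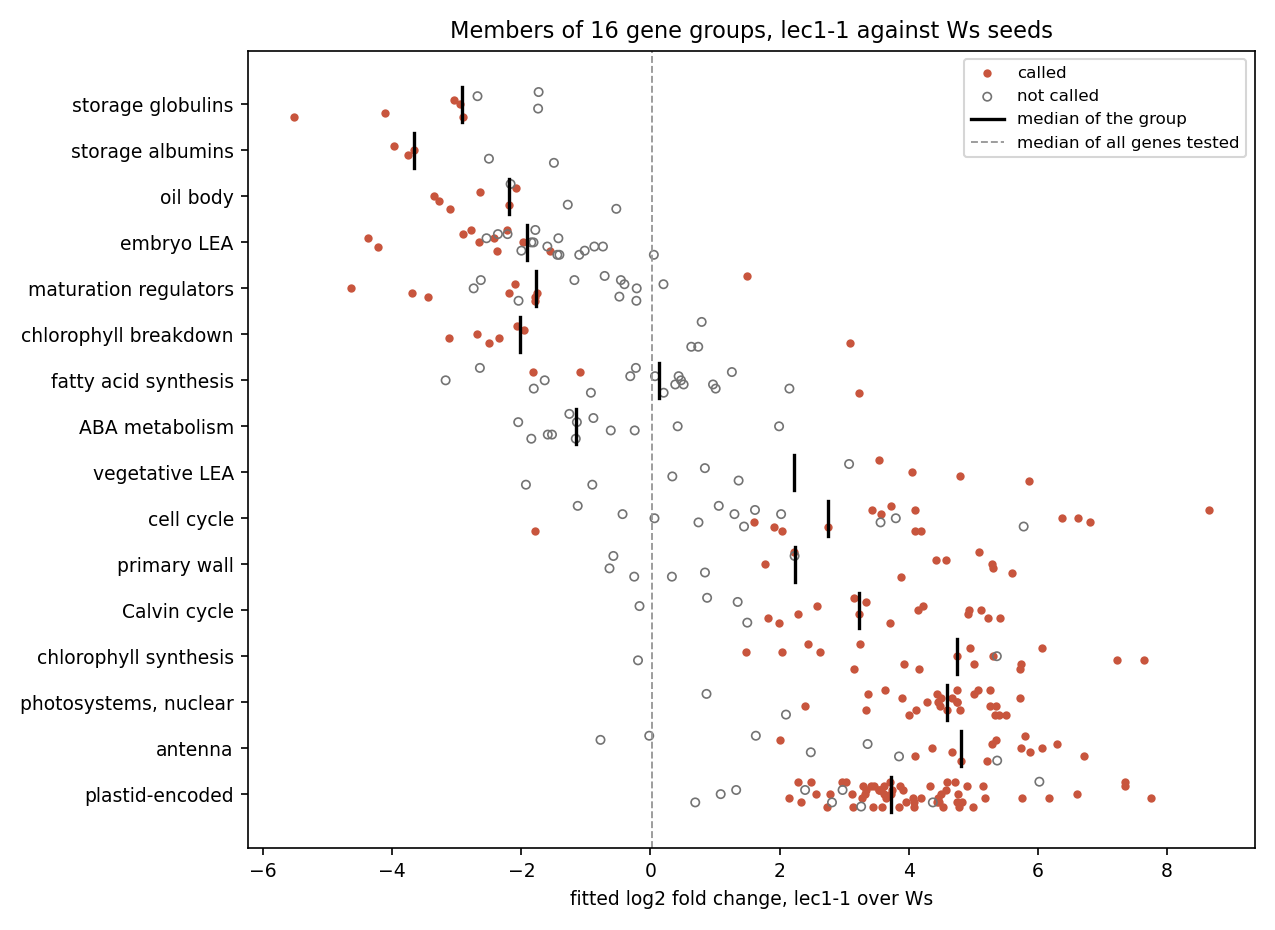
Fitted log2 fold change of lec1-1 over Ws (x axis) for the tested members of 16 gene groups (y axis). Filled points passed an adjusted p under 0.05, open points did not, black bars are group medians and the dashed line is the median of all genes tested (0.03). Reserve, LEA and chlorophyll breakdown genes lie mostly left of the line and photosynthesis genes mostly right of it. For genes with 0 counts in a genotype the fitted value depends on a small added count and is not a bound.

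Most storage protein genes fell in lec1-1. Of 8 globulin (cruciferin and vicilin type) genes 5 fell and 3 did not pass, against 9.15% of all genes. Their median log2 fold change was -2.92, against 0.03 over all genes tested, and the count lower was 3 to 5 without 1 library, namely 3 without lec1-1 15 or 17 DAF, and 3 with library totals. CRU2 (AT1G03880), a 12S cruciferin, stood at 155137, 122412 and 14861 CPM in Ws and 3156, 2353 and 487 CPM in lec1-1, so that all lec1-1 libraries lay below all Ws libraries (log2 fold change -5.52, SE 1.11, adjusted p = 0.00199). PAP85, a vicilin-like globulin, had 8143, 12023 and 19016 CPM in Ws and 1239, 1420.2 and 2030.1 CPM in lec1-1 (log2 fold change -3.04, SE 0.75, adjusted p = 0.00753). Its levels were higher on each later day and did not overlap between the genotypes. AT2G28490, a cupin-family globulin, also fell (log2 fold change -2.94, SE 0.69, adjusted p = 0.00556). The cruciferin gene CRU3 had 498707, 387667 and 46157 CPM in Ws and 43632, 56551 and 28299.5 CPM in lec1-1. The genotypes overlapped through Ws at 21 DAF, and CRU3 did not pass (log2 fold change -2.68, SE 1.13, adjusted p = 0.0898). CRA1, another cruciferin, passed (log2 fold change -2.91, SE 0.94, adjusted p = 0.0318). Its call was lost without the library of lec1-1 15, 17 or 21 DAF or Ws 15 or 17 DAF (adjusted p up to 0.124). AT1G03890, beside CRU2 on the chromosome and of the same cupin family, fell (log2 fold change -4.11, SE 1.11, adjusted p = 0.0124). The call was lost without the library of lec1-1 15 or 17 DAF (adjusted p up to 0.0557).

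Of 5 genes of 2S albumins, the small sulfur-rich storage proteins, 3 fell, with a median of -3.67 (1 to 3 without 1 library, namely 1 without lec1-1 15, 17 or 21 DAF or Ws 15 or 17 DAF, and 3 with library totals). SESA5 stood at 66470.2, 90651 and 28705 CPM in Ws and 4133, 4053 and 3007 CPM in lec1-1 (log2 fold change -3.97, SE 0.81, adjusted p = 0.00225), with no overlap. SESA3 fell (log2 fold change -3.75, SE 1.10, adjusted p = 0.0195). The call was lost without the library of lec1-1 15, 17 or 21 DAF or Ws 15 or 17 DAF (adjusted p up to 0.0807). SESA4 fell (log2 fold change -3.67, SE 1.16, adjusted p = 0.0283). It lost the call without the library of lec1-1 15, 17 or 21 DAF or Ws 15 or 17 DAF (adjusted p up to 0.114). SESA1 and SESA2 had log2 fold changes of -1.49 (adjusted p = 0.237) and -2.50 (adjusted p = 0.15) and did not pass. Albumin genes lie in tandem and are similar in sequence, so the authors' counting may split reads between them. Among 10 genes that sort and cut storage proteins, BETA-VPE, the vacuolar processing enzyme of seeds, had 1216, 1685 and 1419 CPM in Ws and 350.5, 348 and 424 CPM in lec1-1 (log2 fold change -1.93, SE 0.47, adjusted p = 0.00723). VSR1, the vacuolar sorting receptor, fell (log2 fold change -1.44, SE 0.45, adjusted p = 0.0271). That call was lost without the library of lec1-1 15, 17 or 21 DAF or Ws 17 or 21 DAF (adjusted p up to 0.11). With library totals 0 of these 10 genes were called lower and 3 higher.

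Most tested oil body genes fell beside the storage proteins. Of 10 genes whose proteins coat or shape oil bodies, the lipid droplets of seeds, 9 were tested and 6 fell, with a median of -2.19. The count was 2 to 6 without 1 library, namely 2 without lec1-1 17 DAF, and 3 with library totals. OLEO1, the main oleosin, had 29466, 31891 and 7641 CPM in Ws and 2011, 2299.5 and 1889 CPM in lec1-1 (log2 fold change -3.35, SE 0.91, adjusted p = 0.0128). Its Ws libraries all lay above its lec1-1 libraries, and the call was lost without the library of lec1-1 15 or 17 DAF (adjusted p up to 0.063). The oleosin gene AT1G05510 had 3602, 5371 and 4412 CPM in Ws and 450.2, 413 and 670.4 CPM in lec1-1 (log2 fold change -3.10, SE 0.69, adjusted p = 0.00391). The seipin gene AT5G16460 had 58.8, 87.1 and 97.5 CPM in Ws and 10.4, 18.9 and 31.1 CPM in lec1-1 (log2 fold change -2.08, SE 0.35, adjusted p = 0.000676). Neither overlapped. OLEO4 fell (log2 fold change -3.27, SE 0.89, adjusted p = 0.0134). This gene lost the call without the library of lec1-1 17 DAF (adjusted p up to 0.069). OLEO2 had 29578, 32523 and 6534 CPM in Ws and 4427, 4709 and 4205 CPM in lec1-1 and did not pass (log2 fold change -2.17, SE 0.92, adjusted p = 0.0943). Few genes of oil synthesis passed the test, in which 14.5% of all genes were higher and 9.15% lower. Of 9 oil assembly genes TAG1, the diacylglycerol acyltransferase of the last step, was the 1 that fell (log2 fold change -1.24, SE 0.36, adjusted p = 0.0185), and with library totals 3 were called higher and 0 lower. The call was lost without the library of lec1-1 15 or 17 DAF or Ws 21 DAF (adjusted p up to 0.126). Of 20 genes of fatty acid synthesis and its carbon supply, 1 rose, 2 fell and 17 did not pass. Both counts were near or below the shares over all genes. With library totals 8 were called higher and 0 lower. CAC1, a subunit of plastid acetyl-CoA carboxylase, rose (log2 fold change 3.23, SE 1.02, adjusted p = 0.0276). Its call was lost without the library of lec1-1 17 or 21 DAF or Ws 15, 17 or 21 DAF (adjusted p up to 0.125, log2 fold change then 2.62). SUS3, a sucrose synthase, fell (log2 fold change -1.82, SE 0.45, adjusted p = 0.00801). GPT1, the plastid glucose 6-phosphate carrier, fell after TMM scaling (log2 fold change -1.09, SE 0.32, adjusted p = 0.0184) and lay on the other side of 0 with library totals (log2 fold change 0.12). Its call was lost without the library of lec1-1 15 or 21 DAF or Ws 15 DAF (adjusted p up to 0.0881). The median log2 ratio of these 20 genes by day was -1.10, 0.06 and 1.02 at 15, 17 and 21 DAF. WRI1, the transcription factor of the oil pathway, was lower on each later day in Ws (53.8, 10.4 and 2.76 CPM) and stood at 9.79, 8.66 and 10.3 CPM in lec1-1. It did not pass (log2 fold change -0.31, SE 0.89, adjusted p = 0.83).

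The sequences before 3 genes are shown because the maturation regulators are known to act through 2 short motifs, the RY motif CATGCA bound by B3 factors and the G-box CACGTG bound by bZIP factors, and NF-Y through CCAAT. Each is the stretch of 250 bases before the gene start in the RefSeq assembly TAIR10.1 of Col-0, not of Ws, read 5′ to 3′ along the gene, and capitals mark all 3 motifs on either strand. Motif and reverse complement can overlap, as in CATGCATG.

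SESA5 (chr5:22239188-22239437, minus strand), with 4 RY, 1 G-box and 0 CCAAT matches:

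SESA5: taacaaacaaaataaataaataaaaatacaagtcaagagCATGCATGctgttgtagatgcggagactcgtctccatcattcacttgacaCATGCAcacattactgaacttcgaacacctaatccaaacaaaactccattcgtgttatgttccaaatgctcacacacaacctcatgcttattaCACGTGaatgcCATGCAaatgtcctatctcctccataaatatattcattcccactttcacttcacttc

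OLEO1 (chr4:12900180-12900429, plus strand), with 3 RY, 2 G-box and 0 CCAAT matches:

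OLEO1: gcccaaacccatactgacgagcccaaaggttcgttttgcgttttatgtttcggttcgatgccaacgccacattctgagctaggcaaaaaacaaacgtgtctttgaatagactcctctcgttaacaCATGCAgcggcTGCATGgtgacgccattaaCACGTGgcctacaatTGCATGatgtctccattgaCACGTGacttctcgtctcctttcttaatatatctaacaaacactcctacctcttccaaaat

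LHCA2 (chr3:22745264-22745513, plus strand), an antenna gene that rose, with 0 RY, 0 G-box and 1 CCAAT match:

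LHCA2: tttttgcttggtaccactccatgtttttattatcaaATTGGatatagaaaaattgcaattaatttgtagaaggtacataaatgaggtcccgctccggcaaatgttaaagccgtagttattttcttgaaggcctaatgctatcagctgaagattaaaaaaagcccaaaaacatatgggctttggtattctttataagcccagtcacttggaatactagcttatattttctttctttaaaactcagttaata

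Over the groups, the RY motif was in 11 of 13 storage protein windows (84.6%), 10 of 10 oil body windows (100%) and 7 of 30 embryo LEA windows (23.3%), against 7.59% of the windows of all tested genes that have one (15628). The G-box was in 8 of the 13 storage protein windows (61.5%), 2 of the 10 oil body windows (20.0%) and 18 of the 30 embryo LEA windows (60%), against 8.22% of all. CCAAT was in 33 of 50 antenna and photosystem windows (66.0%), 21 of 39 cell cycle windows (53.8%) and 14 of the 30 embryo LEA windows (46.7%). It was in 4 of the 13 storage protein windows (30.8%) and 1 of the 10 oil body windows (10.0%), against 48.3% of all. Among called genes the RY motif was in 10.5% of windows of those lower and 8.99% of those higher, and the G-box in 12.9% and 8.23%. For CCAAT these shares were 44.3% and 50.2%. A match describes these letters in this window and is not a binding site.

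LEA genes of the embryo that passed the test fell, and those of vegetative tissue that passed rose. LEA proteins are hydrophilic proteins that gather before drying, and some family members are also made in leaves under stress or with age. Of 30 embryo LEA genes 26 were tested and 10 fell, with a median of -1.91 and daily medians of -1.88, -2.12 and -1.96 at 15, 17 and 21 DAF. Their summed level was higher on each later day in both genotypes, with 47384, 98641 and 142994 CPM in Ws and 9891, 16823 and 34426 CPM in lec1-1. The gene LEA (AT2G21490, a dehydrin) stood at 3165, 4514 and 5747 CPM in Ws and 394, 502 and 942 CPM in lec1-1 (log2 fold change -2.90, SE 0.73, adjusted p = 0.00874). AT3G15670 stood at 8069, 18268 and 16372 CPM in Ws and 1155, 1881 and 3363 CPM in lec1-1 (log2 fold change -2.77, SE 0.71, adjusted p = 0.00892). ATECP31 had 132, 401 and 2924 CPM in Ws and 6.08, 26.4 and 189.8 CPM in lec1-1, so that lec1-1 at 21 DAF lay above Ws at 15 DAF (log2 fold change -4.22, SE 1.22, adjusted p = 0.0176). RAB18, the ABA-responsive dehydrin and the largest single share of Ws counts at 21 DAF, had 22593, 46518 and 67675 CPM in Ws and 3572, 7354 and 14885 CPM in lec1-1 and did not pass (log2 fold change -2.54, SE 0.97, adjusted p = 0.0623). EM1 and GEA6, group 1 LEA genes, had log2 fold changes of -1.43 and -1.60 and did not pass. The count of embryo LEA genes lower was 0 to 7 without 1 library, namely 0 without lec1-1 17 DAF, 5 without lec1-1 15 DAF, 6 without lec1-1 21 DAF. It was 1 with library totals. LEA was not called without the library of lec1-1 17 DAF (adjusted p up to 0.0529). AT3G15670 was not called without the library of lec1-1 17 DAF (adjusted p up to 0.0596). ATECP31 was not called without the library of lec1-1 17 or 21 DAF or Ws 15 DAF (adjusted p up to 0.0871).

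Of 11 LEA genes known from vegetative tissue 10 were tested and 4 rose, against 14.5% of all genes (4 to 5 without 1 library, and 7 with library totals). SAG21, known from senescing and stressed leaves, had 29.7, 42.9 and 29 CPM in Ws and 3151, 1792 and 938 CPM in lec1-1 (log2 fold change 5.86, SE 0.64, adjusted p = 6.70e-05). DI21 had 65, 57.8 and 22.4 CPM in Ws and 942, 1102 and 2160.1 CPM in lec1-1 (log2 fold change 4.80, SE 0.69, adjusted p = 0.000241). The dehydrin gene AT1G54410 had 2.47, 3.9 and 1.93 CPM in Ws and 42.6, 52.4 and 35.3 CPM in lec1-1 (log2 fold change 4.04, SE 0.77, adjusted p = 0.0014). AT2G44060 had 17.3, 6.5 and 5.25 CPM in Ws and 110.5, 125 and 62.5 CPM in lec1-1 (log2 fold change 3.54, SE 0.62, adjusted p = 0.000833). In all 4 every lec1-1 library lay above every Ws library, as at 23.2% of all genes. The daily medians of the group were -0.03, 1.51 and 3.26. Among 17 heat shock genes HSFA9, the seed-specific heat shock factor, was the 1 called, and with library totals 1 was called higher and 0 lower. HSFA9 had 16.1, 51.3 and 152 CPM in Ws and 1.19, 2.44 and 19.2 CPM in lec1-1 (log2 fold change -3.71, SE 1.17, adjusted p = 0.0276). It was not called without the library of lec1-1 17 or 21 DAF or Ws 15 DAF (adjusted p up to 0.134).

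**Figure D2:**
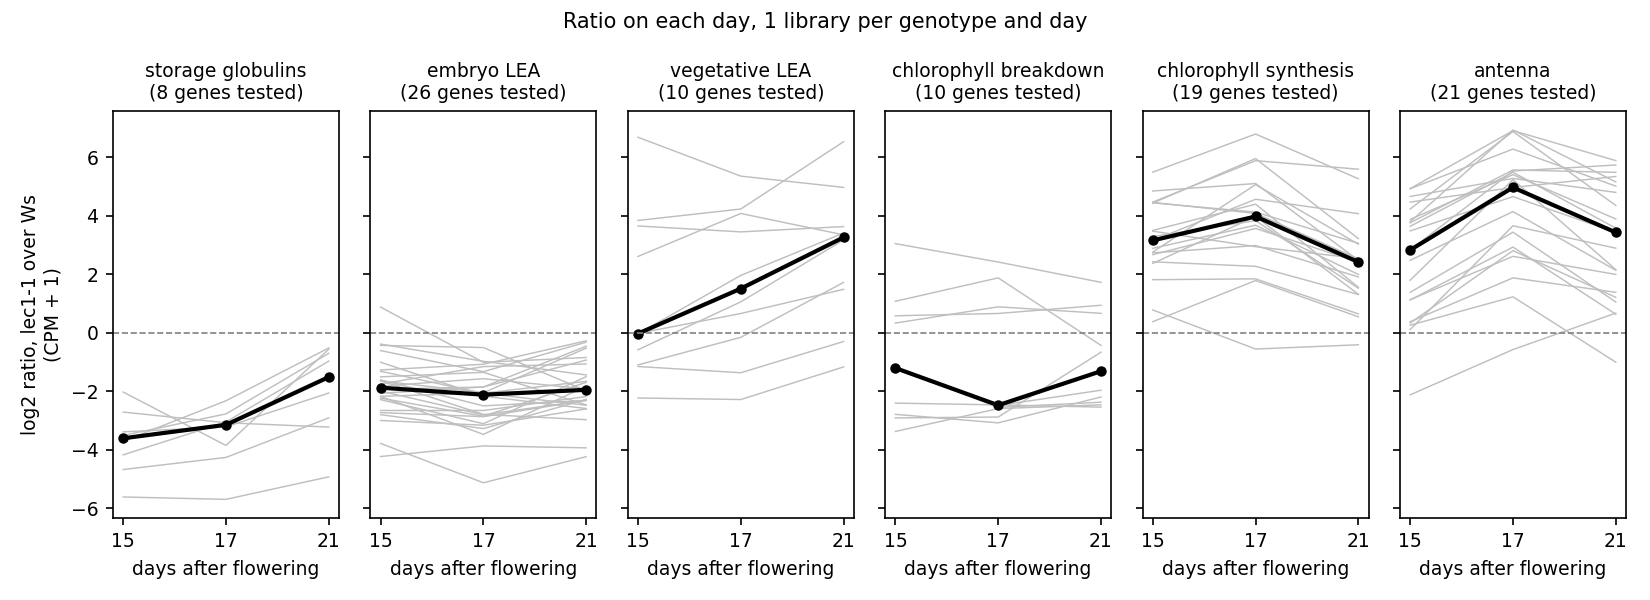
Log2 ratio of lec1-1 over Ws (y axis, CPM with 1 added) on each day after flowering (x axis) for the tested members of 6 gene groups. Grey lines are genes, black points and lines are group medians, and the dashed line is no difference. Median ratios of storage globulins went from -3.61 to -1.52 and those of vegetative LEA genes from -0.03 to 3.26 between 15 and 21 DAF, with 1 library per genotype and day and no test.

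Several regulators of maturation fell too. Of 25 genes of this group 20 were tested, 8 fell and 1 rose, with a median of -1.77. The count lower was 3 to 6 without 1 library, namely 3 without lec1-1 15 or 17 DAF or Ws 17 DAF, 5 without Ws 15 DAF, and with library totals 2 fell and 1 rose. ABI3, the B3 factor that transmits the ABA signal in seeds, had 210.3, 200.1 and 99.2 CPM in Ws and 31, 47.7 and 65.5 CPM in lec1-1 (log2 fold change -1.79, SE 0.49, adjusted p = 0.0138). All Ws libraries lay above all lec1-1 libraries, the gap narrowed over the days, and ABI3 was not called without the library of lec1-1 15 or 17 DAF or Ws 17 DAF (adjusted p up to 0.0762). With library totals its log2 fold change was -0.52. FUS3, the B3 factor that pairs with LEC1 in the control of cotyledon identity, had counts of 45, 30 and 3 in Ws and 22, 1 and 1 in lec1-1 (log2 fold change -3.69, SE 1.13, adjusted p = 0.0242). Ws at 21 DAF lay inside the range of lec1-1 in CPM. FUS3 was not called without the library of lec1-1 15 or 17 DAF or Ws 15 or 17 DAF (adjusted p up to 0.122). LEC2 had 0, 0 and 0 counts in Ws and 1, 4 and 0 in lec1-1 and was not tested. NF-YB6, the closest relative of LEC1, had 26, 4 and 6 counts in Ws and 4, 6 and 2 in lec1-1 and did not pass (log2 fold change -2.63, SE 1.51, adjusted p = 0.215).

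Of the factors beyond these, BBM, an AP2 factor of embryo identity, had 5.57, 12.3 and 3.87 CPM in Ws and 0.148, 0.444 and 0.229 CPM in lec1-1 (log2 fold change -4.64, SE 0.92, adjusted p = 0.00184). AT1G75490, an AP2/ERF factor, had 374, 569 and 379 CPM in Ws and 24.6, 42.9 and 60.9 CPM in lec1-1 (log2 fold change -3.44, SE 0.65, adjusted p = 0.00131). BZO2H1, a bZIP factor, fell as well (log2 fold change -1.79, SE 0.44, adjusted p = 0.00724). These 3 genes had no overlap between the genotypes and were called without each single library. ABI5, the bZIP factor that activates LEA genes, had a log2 fold change of -1.18 and did not pass. ABI4, an AP2 factor of ABA and sugar responses, was the member that rose (log2 fold change 1.50, SE 0.53, adjusted p = 0.046), a call lost without the library of lec1-1 15, 17 or 21 DAF or Ws 17 or 21 DAF. Of 25 genes of NF-Y subunits 21 were tested, and 2 rose and 2 fell, against 14.5% and 9.15% of all genes. With library totals 5 were called higher and 0 lower. NF-YA2 had 1.24, 1.3 and 0.552 CPM in Ws and 21.4, 21.3 and 11.7 CPM in lec1-1 and rose (log2 fold change 4.16, SE 0.89, adjusted p = 0.00302). NF-YA4 rose (log2 fold change 1.43, SE 0.51, adjusted p = 0.0466). The call was lost without the library of lec1-1 15 or 17 DAF or Ws 15, 17 or 21 DAF (adjusted p up to 0.23). NF-YA1 fell (log2 fold change -1.50, SE 0.41, adjusted p = 0.0139). It lost the call without the library of lec1-1 17 DAF (adjusted p up to 0.0907). NF-YB1, a B subunit like LEC1, fell (log2 fold change -1.69, SE 0.49, adjusted p = 0.0179). That call was lost without the library of lec1-1 17 or 21 DAF or Ws 17 DAF (adjusted p up to 0.0983).

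**Figure D3:**
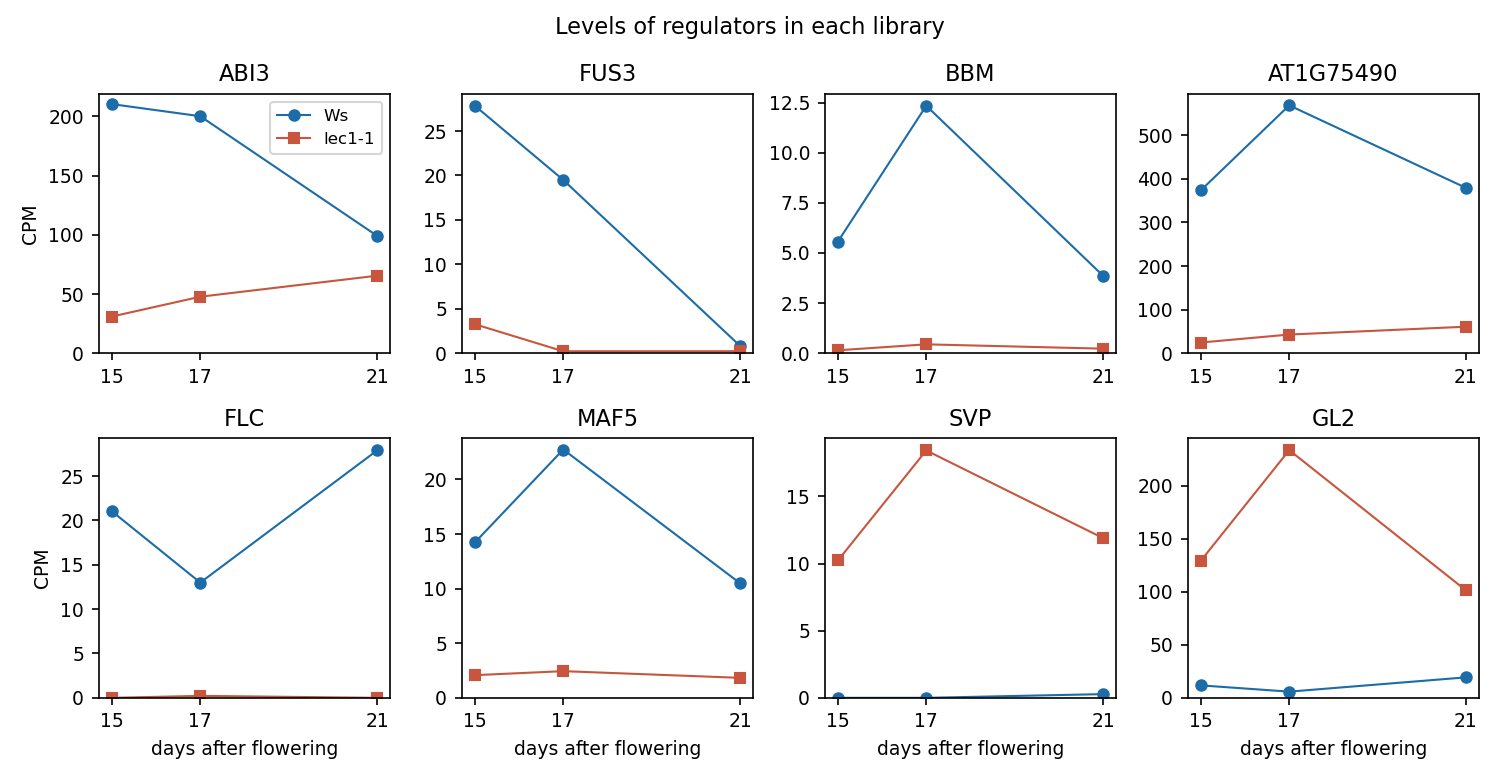
Level (y axis, CPM) on each day after flowering (x axis) of 8 regulators, 1 library per point, Ws as blue circles and lec1-1 as red squares. ABI3, FUS3, BBM, AT1G75490, FLC and MAF5 lie lower in lec1-1, with FLC at 0 to 0.222 CPM there, and SVP and GL2 lie higher.

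Some hormone genes rose and others fell, and their counts stand against 14.5% of all genes higher and 9.15% lower. Of 12 genes of ABA synthesis and breakdown 0 were called by edgeR, with 1 higher and 3 lower at an unadjusted p under 0.05 and 1 higher and 0 lower by DESeq2, and the median was -1.15. Among 17 tested genes of ABA signalling 4 rose and 3 fell. Without the library of lec1-1 15 or 17 DAF or Ws 17 DAF these were 2 higher and 1 lower. The receptor gene PYL4 had 4.95, 1.95 and 2.21 CPM in Ws and 49.8, 107 and 24.3 CPM in lec1-1 (log2 fold change 4.14, SE 0.72, adjusted p = 0.000787). The receptor gene RCAR3 rose (log2 fold change 2.19, SE 0.49, adjusted p = 0.00382). AHG1, a phosphatase that restrains ABA responses in seeds, had 108, 157 and 331 CPM in Ws and 18.1, 40.9 and 57.7 CPM in lec1-1 (log2 fold change -2.37, SE 0.52, adjusted p = 0.00366). These 3 genes did not overlap between the genotypes. With library totals 6 of the ABA signalling genes were called higher and 0 lower. Of 16 tested gibberellin genes 4 rose and 1 fell (1 to 4 without 1 library, namely 1 without lec1-1 17 DAF, 2 without Ws 17 or 21 DAF). Library totals gave 7 higher and 0 lower. GID1B, a gibberellin receptor, had 0, 0 and 0 counts in Ws and 31, 24 and 23 in lec1-1, at least 11.3-fold higher against a floor of 3 counts over the 3 libraries. Of 15 tested auxin genes 6 rose (2 to 6 without 1 library, namely 2 without lec1-1 17 DAF or Ws 17 DAF). The auxin efflux carrier PIN7 had 0, 0 and 0 counts in Ws and 18, 17 and 19 in lec1-1, at least 7.81-fold higher, and PIN3, its relative, was 32.5-fold higher (95% interval of counting error 5.67 to 1302). Of 10 tested brassinosteroid genes 2 rose and 2 fell, and with library totals 6 were called higher and 1 lower. DWF1, an enzyme of sterol synthesis, had 50.7, 27.9 and 5.52 CPM in Ws and 454, 506 and 485 CPM in lec1-1 (log2 fold change 4.59, SE 0.91, adjusted p = 0.00186). ROT3, a later enzyme of the pathway, fell (log2 fold change -2.72, SE 0.51, adjusted p = 0.00129). BES1, a transcription factor of the brassinosteroid response, rose (log2 fold change 2.14, SE 0.69, adjusted p = 0.031). This gene lost the call without the library of lec1-1 17 or 21 DAF or Ws 15 or 17 DAF (adjusted p up to 0.135). DET2, a steroid reductase of the pathway, fell after TMM scaling (log2 fold change -1.16, SE 0.36, adjusted p = 0.0248). It lay on the other side of 0 with library totals (log2 fold change 0.10). Its call was lost without the library of lec1-1 21 DAF or Ws 15 or 17 DAF (adjusted p up to 0.119).

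Most tested photosynthesis genes rose in lec1-1. Of 29 nuclear genes of the photosystems, electron carriers and ATP synthase 27 rose, against 14.5% of all genes, with a median of 4.60 (24 to 27 without 1 library). Plastocyanin PETE1, the copper carrier between the photosystems, had 0.619, 1.95 and 0.276 CPM in Ws and 19.6, 37.3 and 11 CPM in lec1-1 (log2 fold change 4.67, SE 0.84, adjusted p = 0.000993). PSAG, a photosystem I subunit, had 4.33, 3.9 and 2.49 CPM in Ws and 69.3, 150.1 and 52.6 CPM in lec1-1 (log2 fold change 4.80, SE 0.92, adjusted p = 0.00145). Neither overlapped between the genotypes. PETC, the Rieske protein of the cytochrome complex, had 139.8, 155 and 36.7 CPM in Ws and 144, 206 and 178 CPM in lec1-1 and did not pass (log2 fold change 0.87, SE 0.69, adjusted p = 0.378), nor did PSAD-2 (log2 fold change 2.10, SE 0.97, adjusted p = 0.121). Of 21 antenna genes 14 rose, with a median of 4.81, or 4.36 with genes at 0 in Ws at their bound (9 to 16 without 1 library, namely 9 without lec1-1 17 DAF). CAB1, of the major light-harvesting complex, had 58.8, 45.5 and 34.5 CPM in Ws and 1816, 5585 and 2098 CPM in lec1-1 (log2 fold change 6.30, SE 1.24, adjusted p = 0.00177). LHCA2, of the photosystem I antenna and shown by its sequence above, had 4.95, 3.25 and 1.1 CPM in Ws and 79.4, 200.1 and 93.2 CPM in lec1-1 (log2 fold change 5.75, SE 1.12, adjusted p = 0.00165). The lec1-1 levels of both were highest at 17 DAF. CAB1, CAB2 and CAB3 are close copies, and reads may be split between them. Of 19 tested Calvin cycle genes 15 rose, with a median of 3.23 (12 to 15 without 1 library). FBA2, a plastid aldolase, had 2.47, 5.2 and 6.08 CPM in Ws and 135, 219 and 163 CPM in lec1-1 (log2 fold change 5.22, SE 0.92, adjusted p = 0.000822).

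**Figure D4:**
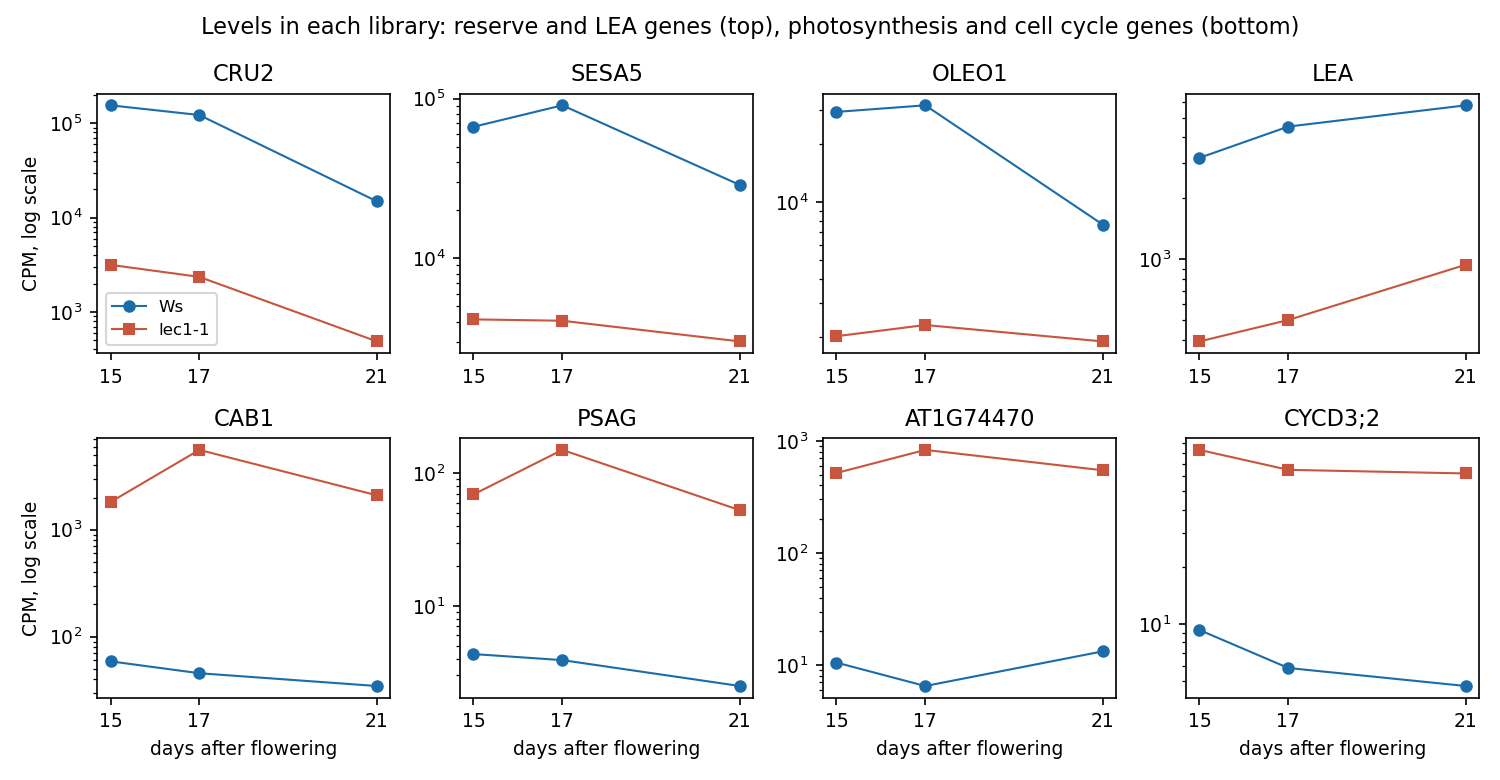
Level (y axis, CPM on a log scale) on each day after flowering (x axis) of 8 genes, 1 library per point, Ws as blue circles and lec1-1 as red squares. CRU2, SESA5, OLEO1 and LEA (top) were lower in lec1-1 on all 3 days, and CAB1, PSAG, the geranylgeranyl reductase gene AT1G74470 and CYCD3;2 (bottom) were higher on all 3.

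The Ws reference for these genes was itself low. The 29 photosystem genes summed to 278, 277 and 163 CPM in Ws, and to 1943, 3797 and 1532 CPM in lec1-1. In the other wild types they summed to 1403, 779 and 152 CPM (Ler) and 1529, 211 and 441 CPM (Col-0) at 15, 17 and 21 DAF, so that Ws at 15 DAF lay below both and the Col-0 library labelled 17 DAF lay below that labelled 21 DAF. In lec2-1, which is desiccation tolerant by the series design and shares the ecotype, they summed to 2739 and 1943 CPM in its 2 distinct libraries. The 21 antenna genes summed to 183 to 279.6 CPM in Ws, 3757 to 12423 CPM in lec1-1, and 5637 and 3860 CPM in lec2-1. With library totals 19 antenna and 29 photosystem genes were called higher.

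Most genes of chlorophyll synthesis rose while most tested genes of its breakdown fell. Of 19 synthesis genes 17 rose, with a median of 4.74, or 3.92 with genes at 0 in Ws at their bound (15 to 17 without 1 library). HEMA1, the glutamyl-tRNA reductase of the first step, had 0.619, 1.3 and 0.276 CPM in Ws and 34.1, 39.1 and 9.61 CPM in lec1-1 (log2 fold change 5.30, SE 0.88, adjusted p = 0.000615). PORB, the light-dependent protochlorophyllide reductase, had 3.71, 3.25 and 6.08 CPM in Ws and 101, 262 and 64.8 CPM in lec1-1 (log2 fold change 4.95, SE 0.92, adjusted p = 0.00123). AT1G74470, the geranylgeranyl reductase that makes the phytol tail, had 10.5, 6.5 and 13.3 CPM in Ws and 516, 830.4 and 546 CPM in lec1-1 (log2 fold change 6.06, SE 0.86, adjusted p = 0.000225). These 3 genes did not overlap between the genotypes. Of 10 breakdown genes 6 fell and 1 rose, with a median of -2.01, and with library totals 0 were called lower and 3 higher. PPH, the pheophytinase, had 307, 503 and 892 CPM in Ws and 57, 89.9 and 152 CPM in lec1-1 (log2 fold change -2.49, SE 0.43, adjusted p = 0.000788). Its log2 fold change with library totals was -1.35, not called. NYE1, the stay-green protein that removes magnesium, had 131, 327 and 571 CPM in Ws and 56.1, 54.8 and 109 CPM in lec1-1 (log2 fold change -2.07, SE 0.54, adjusted p = 0.0106). NYC1, a chlorophyll b reductase, had 67.4, 168 and 246 CPM in Ws and 28.6, 29.1 and 62 CPM in lec1-1 (log2 fold change -1.96, SE 0.48, adjusted p = 0.00736). In these 3 every lec1-1 library lay below every Ws library, although levels were higher on each later day in Ws. The count lower was 1 to 6 without 1 library, namely 1 without lec1-1 17 DAF, where NYE1 was not called (adjusted p = 0.0677) and NYC1 was not called (adjusted p = 0.0511). CLH1, a chlorophyllase, was the member that rose (log2 fold change 3.09, SE 0.80, adjusted p = 0.00976).

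Most tested plastid-encoded transcripts rose with the nuclear genes, whereas 0 mitochondrial ones were called. Plastid transcripts took 0.0305 to 0.0499% of the counts in Ws and 1.04 to 1.48% in lec1-1. Of 133 plastid loci 45 were at 0 in all 6 libraries, 68 were tested and 59 rose, with a median of 3.73, or 3.58 at bounds (41 to 55 without 1 library). ATCG00480 had 48.3, 35.1 and 34 CPM in Ws and 737, 699 and 1844 CPM in lec1-1 (log2 fold change 4.75, SE 0.53, adjusted p = 6.70e-05). ATCG00490 had 1.86, 2.6 and 3.59 CPM in Ws and 81.3, 105 and 100.3 CPM in lec1-1 (log2 fold change 5.18, SE 0.62, adjusted p = 8.82e-05). Both were without overlap. Of 146 mitochondrial loci 18 were tested and 0 were called by edgeR, with 2 at an unadjusted p under 0.05 and 1 by DESeq2, all higher, and a median of 0.01. Of 19 nuclear regulators of plastids 3 rose, near the share over all genes (14.5%). The count was 2 to 4 without 1 library. The 3 were sigma factors of the plastid RNA polymerase, SIGA, SIGF and SIG4. SIGA was 20.8-fold higher (95% interval of counting error 6.99 to 102). SIGF rose by 3.05 on the log2 scale (SE 0.70, adjusted p = 0.00503). SIG4 had 0, 1 and 1 counts in Ws and 14, 20 and 23 in lec1-1, 12.4-fold higher (95% interval of counting error 3.27 to 105). The SIG4 call was lost without the library of lec1-1 17 DAF or Ws 21 DAF (adjusted p up to 0.131, log2 fold change then 3.05). GPRI1 and GLK2, which drive chloroplast genes, and HY5, a light signalling factor, did not pass.

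Many genes of cell division rose in lec1-1. Of 39 cell cycle genes 27 were tested, 14 rose and E2F1, an E2F factor, fell (log2 fold change -1.79, SE 0.45, adjusted p = 0.00864). With library totals 24 were called higher and 0 lower. The median was 2.76, or 2.04 with genes at 0 in Ws at their bound, and the count higher was 9 to 13 without 1 library, namely 9 without lec1-1 15 or 17 DAF or Ws 15, 17 or 21 DAF. CYCD3;1, a cyclin that starts the cycle, had 0, 0 and 0 counts in Ws and 85, 69 and 62 in lec1-1, at least 31.2-fold higher. CYCD3;2 had 9.28, 5.85 and 4.7 CPM in Ws and 82.9, 65.1 and 62.3 CPM in lec1-1 (log2 fold change 3.44, SE 0.44, adjusted p = 0.000111). CDKB1;1, a kinase of the later cycle, had 0, 0 and 0 counts in Ws and 45, 17 and 3 in lec1-1, at least 9.4-fold higher. The 39 genes summed to 119, 105 and 110 CPM in Ws, 382, 332 and 262 CPM in lec1-1, and 124 and 126 CPM in lec2-1. A higher sum was not particular to lec1-1. It was 368, 296 and 199 CPM in fus3-3 and 115, 124 and 112 CPM in Col-0. In abi3-5 it was 185, 166 and 247 CPM, and in Ler 127, 90.4 and 109 CPM. Of 6 shoot apex markers 2 were tested and 1 was called, CLV1, which was higher (log2 fold change 3.10, SE 0.79, adjusted p = 0.00878). WUS and CLV3 were at 0. The markers summed to 2.47 to 4.97 CPM in Ws and 12.6 to 16.5 CPM in lec1-1. Their part in the result was not tested.

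Of 20 leaf identity genes 5 rose (2 to 5 without 1 library, namely 2 without lec1-1 17 DAF or Ws 21 DAF, 3 without Ws 17 DAF), against 14.5% of all genes. The lowest of these counts is below that share. AS1, which keeps shoot apex genes off in leaves, had 9.28, 5.85 and 5.52 CPM in Ws and 42.3, 49.3 and 52 CPM in lec1-1 (log2 fold change 2.84, SE 0.55, adjusted p = 0.00155). GL2, the homeodomain factor of trichomes, had 11.8, 5.85 and 19.3 CPM in Ws and 129, 234 and 101 CPM in lec1-1 (log2 fold change 3.50, SE 0.56, adjusted p = 0.000484), the 1 called of 5 tested trichome genes, which is near the share over all genes. STOMAGEN, a peptide that promotes stomata, was 19.1-fold higher (95% interval of counting error 6.39 to 93.8), one of 3 called of 9 tested stomata genes (1 to 2 without 1 library, namely 1 without lec1-1 17 DAF or Ws 17 DAF). In the surface lipid group 4 of 16 tested rose (3 to 4 without 1 library). CER1, of alkane synthesis in wax, had 0, 0 and 0 counts in Ws and 85, 79 and 70 in lec1-1, at least 33.8-fold higher. LP1, a lipid transfer protein, had 17.3, 16.9 and 15.2 CPM in Ws and 1298, 1609 and 777 CPM in lec1-1 (log2 fold change 6.23, SE 0.98, adjusted p = 0.000393). Of 15 tested primary wall genes 9 rose (6 to 9 without 1 library), among them the xyloglucan enzyme gene XTH5 with 0, 1.95 and 2.49 CPM in Ws and 65, 63.9 and 50.6 CPM in lec1-1 (log2 fold change 5.30, SE 0.75, adjusted p = 0.0002). The genes named here with values in both genotypes did not overlap between them. Of 13 genes of germination and oil use 0 rose by edgeR, with 1 at an unadjusted p under 0.05 and 1 by DESeq2, and 2 fell (0 to 2 without 1 library, namely 0 without lec1-1 17 or 21 DAF). Library totals gave 4 higher and 0 lower. The glyoxylate cycle genes ICL (log2 fold change -0.56, adjusted p = 0.549) and MLS (log2 fold change -0.37, adjusted p = 0.789) did not pass.

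Of 3 repressors of flowering named here 2 fell and 1 rose. FLC, the MADS-box repressor that vernalization silences and embryogenesis resets, had 34, 20 and 101 counts in Ws and 0, 1 and 0 in lec1-1, 357-fold lower (95% interval of counting error 63.2 to 14198). MAF5, a relative of FLC, had 14.2, 22.7 and 10.5 CPM in Ws and 2.08, 2.44 and 1.83 CPM in lec1-1 (log2 fold change -2.82, SE 0.47, adjusted p = 0.00062). SVP, the partner of FLC in repression, had 0, 0 and 1 counts in Ws and 69, 83 and 52 in lec1-1, 88.5-fold higher (95% interval of counting error 15.7 to 3513). None of these 3 genes overlapped between the genotypes, and all 3 were called without each single library. Of 13 tested flowering genes 1 rose and 3 fell, against 14.5% and 9.15% of all genes, and with library totals 3 were higher and 2 lower. FLC stood at 1.92 and 2.79 CPM in the distinct lec2-1 libraries.

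The 12 genes with the largest fitted rise, among those called with at least 20 counts on average and 1 direction on all days, included CER1 and CYCD3;1 above. CSP41A, a chloroplast RNA-binding protein, was at least 31.5-fold higher, LOL1, of the LSD1-like zinc finger family, was at least 44.6-fold higher, and PnsB2, a subunit of the chloroplast NDH complex, was at least 18.5-fold higher. NAI1, the bHLH factor of ER bodies, was at least 32.3-fold higher. NAI2, an ER body protein, had 0, 2 and 0 counts in Ws and 1015, 621 and 195 in lec1-1, 397-fold higher (95% interval of counting error 109.8 to 3283). ESE3, an ethylene and salt inducible AP2 factor, was at least 19.8-fold higher. The others were AT4G15160 (at least 24.2-fold higher), AT4G29690 (at least 25.3-fold higher), AT4G16980 (at least 23.1-fold higher) and the flavonoid glucosyltransferase gene UF3GT (at least 37.3-fold higher). The call of UF3GT was lost without the library of lec1-1 17 DAF or Ws 15, 17 or 21 DAF (adjusted p up to 0.0885). The 12 with the largest fitted fall included FLC, CRU2 and AT1G08170, a histone-like gene. The knottin gene AT1G47540 had 11982, 9735 and 2539 CPM in Ws and 168, 55.3 and 22.4 CPM in lec1-1 (log2 fold change -6.78, SE 0.89, adjusted p = 0.000135). AT4G15620 had 135, 203 and 449.9 CPM in Ws and 2.22, 2 and 3.89 CPM in lec1-1 (log2 fold change -6.52, SE 0.72, adjusted p = 6.70e-05). The trypsin inhibitor gene TI2 had 385, 218 and 55.5 CPM in Ws and 5.49, 3.11 and 1.6 CPM in lec1-1 (log2 fold change -5.82, SE 0.95, adjusted p = 0.00054). PAL4, an entry enzyme of phenylpropanoids, had 54.4, 71.5 and 49.2 CPM in Ws and 4.6, 2.89 and 1.6 CPM in lec1-1 (log2 fold change -4.47, SE 0.70, adjusted p = 0.000388). In these 4 the genotypes did not overlap. The other 5 were AT1G78500 (-5.44), AT2G34740 (-5.12), the embryo homeobox gene WOX2 (-4.76), AT2G34700 (-4.59) and CYP71A15 (-4.49). AT1G78500 was not called without the library of lec1-1 15 or 17 DAF or Ws 17 DAF (adjusted p up to 0.0852). AT2G34740 was not called without the library of lec1-1 15, 17 or 21 DAF or Ws 15 or 21 DAF (adjusted p up to 0.159, log2 fold change then -4.06). WOX2 was not called without any 1 of the 6 libraries (adjusted p up to 0.622, log2 fold change then -2.15), nor was AT2G34700 without the library of lec1-1 15 or 17 DAF (adjusted p up to 0.0604).

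A second question was whether genes changed with the days differently in lec1-1. A difference in slope was called for 0 of 16085 genes by edgeR (0%), with 659 at an unadjusted p under 0.05 (4.1%), 2 by DESeq2, and 7 residual degrees of freedom. The values that follow are the differences in log2 change from 15 to 21 DAF of genes with the smallest p, none of which passed. RD22, a dehydration-responsive gene, went through 6.19, 1.95 and 0 CPM in Ws and 35, 69.1 and 182 CPM in lec1-1 (8.72, SE 1.53, unadjusted p = 5.80e-05, adjusted p = 0.466). XTH15, a xyloglucan enzyme gene, went through 1.86, 3.25 and 6.63 CPM in Ws and 627, 228 and 9.84 CPM in lec1-1 (-7.85, SE 1.33, unadjusted p = 5.42e-05, adjusted p = 0.466). TCH3, a calmodulin-like gene, had 1.86, 1.95 and 0 CPM in Ws and 2.97, 14.9 and 68 CPM in lec1-1, and the homeobox gene HAT3 had 19.2, 7.8 and 0.276 CPM in Ws and 10.4, 24.6 and 23.1 CPM in lec1-1. The oligopeptide transporter gene OPT6 had 0.619, 1.3 and 5.52 CPM in Ws and 33.5, 19.1 and 6.87 CPM in lec1-1. The others by this rule were PAP1 (the phosphatase AT2G01180), AT5G01215, AT5G01210, AT3G57930, GR-RBP6, AT5G10390 and CAM5, with differences of 4.80, 3.75, 3.99, -9.71, -3.93, -3.91 and -3.36.

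The last comparisons asked where lec1-1 differs from the other mutants. Against lec2-1, of the same ecotype, 204 genes were called (1.27%), 105 higher in lec1-1 (0.653%) and 99 lower (0.615%), with 2978 at an unadjusted p under 0.05 (18.5%). The count was 8 to 159 without 1 library, 8 without lec1-1 at 17 DAF. The effect of lec1-1 in Ws differed from that of abi3-5 in Ler at 54 genes (0.336%), 43 higher (0.267%) and 11 lower (0.0684%), and from that of fus3-3 in Col-0 at 1 gene (0.00622%). At an unadjusted p under 0.05 these were 1676 (10.4%) and 674 (4.19%). Among the groups above, the globulin gene CRU2 had a lec1-1 minus lec2-1 difference of -4.15 (adjusted p = 0.0579), the LEA gene LEA of -1.84 (adjusted p = 0.195) and the antenna gene CAB1 of 1.83 (adjusted p = 0.438), and none passed. The embryo LEA genes summed to 45466 and 61448 CPM in the 2 distinct lec2-1 libraries, against 9891 to 34426 CPM in lec1-1.

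Of the gene groups, 12 nuclear members were called between lec1-1 and lec2-1, where 1.27% of all genes were called. Most groups had none. Among the 12 were 2 of 27 cell cycle genes, 3 of 36 histone genes and 1 of 10 chlorophyll breakdown genes. Of 68 tested plastid-encoded transcripts 3 were called higher in lec1-1 than in lec2-1 and 0 lower, against 0.653% and 0.615% of all genes. Their median log2 difference was 1.85. The lec1-1 effect was called higher than that of abi3-5 at 7 of the 68 and at 4 of 26 tested embryo LEA genes, against 0.267% of all. The lec2-1 values that follow are for the library deposited as both 15 and 17 DAF, then for that of 21 DAF. Which of the days 15 and 17 DAF the first belongs to is not known. CYCD3;2 stood at 17.9 and 13.8 CPM in lec2-1, below the 62.3 to 82.9 CPM of lec1-1 (log2 difference 2.11, SE 0.46, adjusted p = 0.0346), and CYCD3;1 at 1.92 and 1.3 CPM (log2 difference 3.10, SE 0.74, adjusted p = 0.0478). The wall gene XTH5 was at 1.92 and 2.42 CPM in lec2-1 and at 50.6 to 65.0 CPM in lec1-1 (log2 difference 4.91, SE 0.82, adjusted p = 0.0109). These 3 genes were chosen because they were called against lec2-1, so their lack of overlap with lec2-1 is no further support. PPH, of chlorophyll breakdown, had 353 and 429 CPM in lec2-1 and was lower in lec1-1 (log2 difference -1.96, SE 0.46, adjusted p = 0.041). The LEA gene AT3G17520 was higher in lec1-1 than in lec2-1. It had 2082, 3620.4 and 2833 CPM in Ws and 494, 998 and 2053 CPM in lec1-1, but 13.7 and 8.37 CPM in lec2-1 (log2 difference 6.58, SE 0.88, adjusted p = 0.0019), a call kept without each single library. XTH5 was not called without the library of lec1-1 17 DAF (adjusted p up to 0.0555). CYCD3;2 was not called without the library of lec1-1 15, 17 or 21 DAF or Ws 17 DAF (adjusted p up to 0.14). CYCD3;1 lost the call without any 1 of the 6 lec1-1 and Ws libraries (adjusted p up to 0.182), and PPH lost it without the library of lec1-1 15, 17 or 21 DAF or Ws 15 or 17 DAF (adjusted p up to 0.189).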

How the data were processed

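Seed RNA of 8 genotypes at 15, 17 and 21 DAF was counted per locus (33597 loci, 24 columns). The deposited counts are whole reads per locus on the TAIR10 build, per the submitters' processing notes, and the aligner, the counter and its use of strand are not given in the sources used here, so reads of overlapping genes such as AT5G01215 and AT5G01210 or AT1G67855 and AT1G67856 cannot be told apart. The authors also deposited a normalized signal for 22010 loci with a total of at least 3 counts, made with edgeR per the submitters' processing notes. It gave back whole reads for 100% of values within 0.01, and the test on those reads, added after the data were seen, called 3808 genes. For lec2-1 the columns of 15 and 17 DAF do not differ at any locus and were counted as 1 library, entered in the fits midway between these days.

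Counts were filtered (filterByExpr, minimum count 10, 16085 loci kept), scaled by TMM and fitted with edgeR 4.0.16 (quasi-likelihood, R 4.3.3) over all 23 distinct libraries, with genotype and day as terms (13 residual degrees of freedom). A second model let each genotype have its own slope over the days (7 residual degrees of freedom). Calls needed an adjusted p under 0.05 over all tested loci. The day pairs lec1-1 with Ws as a block, since same-day samples share a collection time and nothing else is said to link them. Alternatives used DESeq2 1.42.0, limma 3.58.1, other scalings and filters, and each library or day left out. Counting intervals are exact binomial at 95% and cover counting error only. The script was tested on simulated counts.

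The members, gene lists and tests were chosen with earlier results of these data known. Genes were named as LEC1 and its partner regulators, the 12 called genes each way with the largest change, one direction throughout and 20 or more counts on average, the 6 each way with the smallest p for the slope, up to 4 each way for each other mutant, and up to 5 members of each list with the smallest adjusted p, plus members a result turns on. Members called against lec2-1, and list members named though not called, were chosen after their values were seen. Gene names came from RefSeq for 32818 loci.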

Additional observations from a re-analysis of the deposited data

Results flagged for a closer look

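The results here are differences between mutants that passed a test of the difference itself. Between lec1-1 and lec2-1 204 genes were called, between the effects of lec1-1 and abi3-5 54, and between those of lec1-1 and fus3-3 1. Of the 17 calls named below, AT4G15620 standing in both of the first comparisons, 7 were kept without each single library. A fitted difference against libraries at 0 counts depends on a small added count and is no bound.

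Higher in lec1-1 than in lec2-1 was SBP3, of the selenium-binding protein family, with 22.1, 28.2 and 30.7 CPM in lec1-1 and 0 counts in both lec2-1 libraries, at least 74.5-fold against a floor of 3 counts in the summed group (9.88, SE 1.39, adjusted p = 0.004). AT3G27420 stood at 14.8, 13 and 19.6 CPM in Ws, 15.3, 17.8 and 10.8 CPM in lec1-1 and 0 counts in lec2-1, at least 41.8-fold (8.70, SE 1.02, adjusted p = 0.00114). Both calls were kept without each library. MEE26 was 201-fold higher (95% interval of counting error 35.9 to 7963, fitted difference 6.72, SE 1.66, adjusted p = 0.0498). Its call was lost without any 1 of the 6 lec1-1 and Ws libraries (adjusted p up to 0.185). AT5G08391 was 114-fold higher (95% interval of counting error 20.3 to 4541, fitted difference 6.68, SE 1.16, adjusted p = 0.0194). The call was lost without the library of lec1-1 15 or 17 DAF (adjusted p up to 0.0846). Lower in lec1-1 was the knottin gene AT1G47540, at 7625 and 942 CPM in lec2-1 (-5.87, SE 0.87, adjusted p = 0.00534), not called without the library of lec1-1 17 DAF (adjusted p up to 0.0609). AT4G15620, at 107 and 144 CPM in lec2-1, was also lower (-5.45, SE 0.71, adjusted p = 0.0019), and the call was kept. TI2, a trypsin inhibitor gene, was at 164 and 13.9 CPM in lec2-1 (-4.54, SE 0.94, adjusted p = 0.0332). It lost the call without the library of lec1-1 15, 17 or 21 DAF (adjusted p up to 0.162). AAP7, an amino acid permease gene, was at 52.7 and 3.35 CPM in lec2-1 and 3.71, 0.888 and 0 CPM in lec1-1 (-4.48, SE 0.97, adjusted p = 0.0346), not called without the library of lec1-1 15, 17 or 21 DAF (adjusted p up to 0.189). Some of these levels recurred in fus3-3. SBP3 had 59.6, 57.1 and 28.1 CPM there and 0.5, 0.618 and 1.84 CPM in Col-0. AT1G47540 had 15.4, 18.4 and 15.2 CPM in fus3-3 and 7259, 529 and 1280 CPM in Col-0. TI2 had 0.325, 0.531 and 0.81 CPM in fus3-3 and 493, 12.4 and 76.4 CPM in Col-0. The remaining genes of this comparison are not given for fus3-3.

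For the effects of lec1-1 in Ws and abi3-5 in Ler, AT1G67856 differed by 11.07, SE 1.41, adjusted p = 0.000894, and AT1G67855 beside it by 10.92, SE 1.7, adjusted p = 0.00852. AT1G67856 had 0, 0 and 1.1 CPM in Ws, 10.2, 4.88 and 30.4 CPM in lec1-1, 2.75, 9.77 and 27.8 CPM in Ler and 0.284, 0.229 and 0.211 CPM in abi3-5. AT1G52100, of the mannose-binding lectin family, differed by 10.47, SE 1.52, adjusted p = 0.00886. It had 1.24, 1.95 and 0.552 CPM in Ws and 74, 55.3 and 25.2 CPM in lec1-1. In Ler it had 8, 0 and 0 counts and in abi3-5 0, 0 and 0, so the abi3-5 effect rests on few counts. The calls of AT1G67856, AT1G67855 and AT1G52100 were kept without each library. SULTR2;1, a sulfate transporter gene, differed by 7.53, SE 1.40, adjusted p = 0.021. It was not called without the library of lec1-1 21 DAF or Ws 17 or 21 DAF (adjusted p up to 0.0831). FLC differed by -8.05, SE 1.45, adjusted p = 0.0159, with 66.9, 6.52 and 33.3 CPM in Ler and 69.8, 55.4 and 5.06 CPM in abi3-5, where both genotypes overlapped, and was not called without the library of lec1-1 15 or 21 DAF or Ws 21 DAF (adjusted p up to 0.0797). AT2G36770, a glycosyltransferase family gene, differed by -5.71, SE 1.14, adjusted p = 0.0286. It was not called without any 1 of the 6 lec1-1 and Ws libraries (adjusted p up to 0.106). AT4G15620 differed by -5.03, SE 0.87, adjusted p = 0.0119, not called without the library of lec1-1 15 DAF or Ws 21 DAF (adjusted p up to 0.0562). AT5G62720 differed by -3.80, SE 0.74, adjusted p = 0.025. It was not called without the library of lec1-1 15, 17 or 21 DAF or Ws 15 or 21 DAF (adjusted p up to 0.103). It had 14.2, 9.10 and 22.1 CPM in Ws and 7.56, 9.33 and 6.41 CPM in lec1-1, which overlapped. In Ler it had 3.54, 7.33 and 4.96 CPM and in abi3-5 40.6, 44.2 and 21.7 CPM. Between the effects of lec1-1 and fus3-3 the called gene was AT4G38932, annotated as other RNA, with 147, 220.3 and 217 CPM in Ws, 238, 268 and 266 CPM in lec1-1, 126, 209 and 108 CPM in Col-0 and 0.217, 0.85 and 0.202 CPM in fus3-3 (8.71, SE 1.03, adjusted p = 0.000936), kept without each library. AT4G38932 was also near 0 in the wild type Ler (3.15, 0 and 0 CPM) and in abi3-5 (0, 1.15 and 0 CPM). Whether its level follows the mutation or the genetic background of a line was not tested.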

How the results depend on the processing

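Of 188 named genes called between lec1-1 and Ws, 113 kept the call without each single library and 144 with library totals, and GPT1 (0.12) and DET2 (0.10) then reversed their log2 fold change. Genes called were 6561 with library totals, 1515 for changes past 2-fold, 1889 to 2775 without 1 library, and 1032, 489 and 2399 without all libraries of 15, 17 and 21 DAF. The count stayed within 1.5 times, between 2699 (no day term, hence no replicate block) and 5559 (Ws, lec1-1 and lec2-1 libraries only), in the other alternatives, with 4148 for the 6 libraries alone with the day as replicate block and 4348 with DESeq2. Against lec2-1 the count was 621 with Col-0 at 17 and 21 DAF left out, 1035 with DESeq2 and 8 to 159 without 1 library. For the abi3-5 effect these were 111, 234 and 21 to 35. For the fus3-3 effect they were 10 with DESeq2, 2 with library totals and 1 to 2 without 1 library. Slope differences numbered 39 without a filter, 232 in Ws, lec1-1 and lec2-1 only and 2 with DESeq2. Past 4-fold by day, higher and lower genes numbered 4916 and 83, 4256 and 148, and 2587 and 216 at 15, 17 and 21 DAF with library totals, and 469 and 315, 774 and 408, and 478 and 250 with a pseudocount of 5. The cause of these shifts was not tested. With 1 library per genotype and day, biological and technical spread cannot be told apart, and no day has a repeat of its own. LEC1 and LEC2, at 0 to 4 counts, could not be tested at this depth.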

Other observations

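Some genes that protect drying cells and move water also passed the test between lec1-1 and Ws, where 14.5% of all genes were higher and 9.15% lower. Of 18 antioxidant genes 3 rose and 6 fell. The count lower was 2 to 5 without 1 library, namely 2 without lec1-1 17 DAF, 3 without lec1-1 15 DAF, and library totals gave 4 higher and 2 lower. CSD2, the plastid copper/zinc superoxide dismutase, had 33.4, 46.1 and 32.9 CPM in Ws and 3.11, 4 and 8.01 CPM in lec1-1 (log2 fold change -2.97, SE 0.51, adjusted p = 0.000698). AT3G56350, a manganese superoxide dismutase family gene, had 971, 1064 and 1624 CPM in Ws and 143, 164 and 225 CPM in lec1-1 (log2 fold change -2.78, SE 0.50, adjusted p = 0.000993). CAT1, a catalase, fell (log2 fold change -2.08, SE 0.52, adjusted p = 0.00852). It lost the call without the library of lec1-1 17 DAF (adjusted p up to 0.0521). FSD1, an iron superoxide dismutase, had 181, 64.3 and 23.2 CPM in Ws and 1423, 977 and 335 CPM in lec1-1 (log2 fold change 3.52, SE 0.84, adjusted p = 0.00635). G-TMT, of vitamin E synthesis, had 2.47, 8.45 and 2.76 CPM in Ws and 33.2, 73.5 and 75.1 CPM in lec1-1 (log2 fold change 3.80, SE 0.83, adjusted p = 0.00333). In CSD2, AT3G56350, FSD1 and G-TMT the genotypes did not overlap. Of 10 tested aquaporin genes 3 rose and 2 fell. The plasma membrane aquaporin gene PIP3 had 8.04, 6.5 and 5.8 CPM in Ws and 209, 196 and 74.2 CPM in lec1-1 (log2 fold change 4.41, SE 0.47, adjusted p = 6.70e-05). The vacuolar GAMMA-TIP had 0.619, 1.3 and 1.38 CPM in Ws and 22.2, 35.5 and 14.9 CPM in lec1-1 (log2 fold change 4.15, SE 0.83, adjusted p = 0.00198). TIP3;1, a seed-specific vacuolar aquaporin, had 5789, 6968 and 3212 CPM in Ws and 905, 1304 and 1589.7 CPM in lec1-1 (log2 fold change -2.10, SE 0.64, adjusted p = 0.0228). That call was lost without the library of lec1-1 15 or 17 DAF or Ws 15 or 17 DAF (adjusted p up to 0.1). BETA-TIP, its relative, lost the call without the same libraries (log2 fold change -2.20, SE 0.72, adjusted p = 0.0338). With library totals 5 aquaporin genes were called higher and 0 lower. Of 8 tested genes of raffinose sugars and inositol 3 fell (1 to 2 without 1 library, namely 1 without lec1-1 15, 17 or 21 DAF or Ws 15 or 17 DAF), and library totals gave 1 higher and 0 lower. MIPS2, an inositol phosphate synthase, had 189.9, 403 and 627 CPM in Ws and 34.1, 58.4 and 154 CPM in lec1-1 (log2 fold change -2.38, SE 0.47, adjusted p = 0.00185). STS was not called without the library of lec1-1 15, 17 or 21 DAF or Ws 15 or 17 DAF (adjusted p up to 0.135). GolS1 was not called without any 1 of the 6 libraries (adjusted p up to 0.126).

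Of 36 tested histone genes 5 rose and 4 fell, close to the shares over all genes (14.5% and 9.15%). With library totals 23 were called higher and 1 lower. The counts were 1 to 6 higher and 1 to 3 lower without 1 library, with 1 higher without lec1-1 15 or 17 DAF or Ws 15 or 17 DAF. HTA11, an H2A variant gene, had 0, 0 and 0 counts in Ws and 116, 52 and 13 in lec1-1, at least 26.2-fold higher, and 0.639 and 0.186 CPM in the distinct lec2-1 libraries. AT1G08170, annotated in the histone family, had 11.1, 57.8 and 347 CPM in Ws and 0.445, 1.78 and 12.1 CPM in lec1-1 (log2 fold change -4.84, SE 0.92, adjusted p = 0.00135) and 37 and 76.4 CPM in lec2-1. Of 16 tested cytosolic ribosome genes 9 rose (5 to 8 without 1 library, namely 5 without lec1-1 17 DAF or Ws 21 DAF). Of 15 tested flavonoid genes 4 rose (0 to 5 without 1 library, namely 0 without Ws 17 DAF, 1 without lec1-1 17 DAF or Ws 15 DAF, 2 without Ws 21 DAF). TT4, chalcone synthase, had 42.1, 2.6 and 3.04 CPM in Ws and 94.9, 206 and 153 CPM in lec1-1 (log2 fold change 4.53, SE 1.19, adjusted p = 0.0105). This gene lost the call without the library of Ws 17 or 21 DAF (adjusted p up to 0.0578). Among 8 genes often used as references, ACT2 had 19.2, 16.9 and 40.1 CPM in Ws and 205, 343 and 362 CPM in lec1-1 (log2 fold change 3.60, SE 0.48, adjusted p = 0.00014), whereas ACT7 had 231, 265 and 162 CPM in Ws and 203, 224 and 214 CPM in lec1-1 (log2 fold change -0.03, SE 0.33, adjusted p = 0.969). EPR1, an endosperm marker, had 1075, 1443 and 555 CPM in Ws and 162, 166 and 222 CPM in lec1-1 (log2 fold change -2.43, SE 0.55, adjusted p = 0.0042), and 1094 and 913 CPM in lec2-1.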
